A study of Mus musculus with 12 samples.

Results

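The genes described here are heat shock proteins and cytosolic chaperones, with their co-chaperones, mitochondrial relatives and heat shock factors. They were taken from a list of 38 mouse gene symbols. A gene was read by the probe set that carries its symbol alone and has the highest mean over all 12 arrays, out of 18193 genes read in that way. This gave values for 36 of the 38. No probe set carries the symbol Hsp90ab1 or Hsf1 alone, so the constitutive Hsp90 and heat shock factor 1 were not analysed here.

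The samples are 4 mouse leukaemia lines derived from animals of the BXH-2 strain, which develop myeloid leukaemia from a virus they carry. B117H is a line that is highly resistant to Ara-C (cytarabine, a cytidine analogue that blocks DNA synthesis), and B117P is the sensitive parental line it was derived from. B140H and B140P form the second such pair. Each line is a single line with 3 arrays, lettered A, B and C, and total RNA was extracted with a column kit, amplified and labelled with biotin. The descriptions of all 12 samples carry the same treatment and growth text, stepwise Ara-C exposure and passage in ASM medium without it, so the text does not separate the groups. Nothing given says that the 3 arrays of a line came from separate cultures, and the p-values therefore measure only the spread between these arrays. In bulk RNA, fewer cells of a type and less RNA per cell cannot be told apart.

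Chaperones keep proteins from clumping and help them to fold. Hsp70 proteins bind and release unfolded stretches in a cycle driven by ATP: J-domain proteins start it by triggering ATP hydrolysis, and BAG and Hsp110 proteins end it by exchanging the nucleotide. Hsp90 finishes the folding of kinases and receptors with a set of partner proteins, and the ring-shaped TRiC complex (also called CCT) folds actin and tubulin. Under heat or proteotoxic stress, heat shock factor 1 binds repeats of the letters GAA in alternating orientation in the promoters of many of these genes and raises their transcription. Leukaemia cells are known to carry many client proteins of Hsp90.

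These letters were searched in promoters from RefSeq (build GRCm38.p6, from 250 bases before to 50 bases after a gene's start), which held 30 of the 36 genes. A pair of units, GAANNTTC or TTCNNGAA, each of which reads the same on both strands, stood in the promoters of 14 of the 30 chaperone genes (46.7%), against 17% of the 27025 genes in that collection. A run of 3 units, GAANNTTCNNGAA or TTCNNGAANNTTC, which are the same sequence on opposite strands and contain the shorter motif, stood in 4 of 30 (13.3%: Hsph1, Hspd1, Hspe1 and Dnajb6), against 0.662% of all genes. A match is a stretch of letters and not a measured binding site. The stretches below are shown because they belong to the genes on which the results turn, and to Hspd1, whose promoter holds a run of 4 units. Capitals mark the GAA and TTC units with the bases between them, each stretch is written 5′ to 3′ in the direction of the gene, and coordinates are those of GRCm38.p6.
Hspa1b, chr17:34959305-34959372, minus strand, motif 104 bases before the start: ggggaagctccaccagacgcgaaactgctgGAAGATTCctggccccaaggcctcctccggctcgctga
Dnajb4, chr3:152193822-152193889, minus strand, motif 14 bases before the start: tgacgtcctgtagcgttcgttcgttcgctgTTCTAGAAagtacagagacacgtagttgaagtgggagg
Cct5, chr15:31601843-31601910, minus strand, motif 34 bases before the start: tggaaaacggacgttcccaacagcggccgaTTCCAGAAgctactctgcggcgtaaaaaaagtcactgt
Bag3, chr7:128523603-128523632, plus strand, motif from base 43 of the transcript: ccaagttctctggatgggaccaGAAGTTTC
Hsph1, chr5:149636286-149636330, minus strand, motif from base 16 of the transcript: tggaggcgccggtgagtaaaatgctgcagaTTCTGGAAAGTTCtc
Hspd1, chr1:55088029-55088101, minus strand, the run shown, with the 3-unit motif nearest to the start beginning 139 bases before it: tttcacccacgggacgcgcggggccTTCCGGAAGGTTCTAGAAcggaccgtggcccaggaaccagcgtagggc

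Values are RMA intensities, on a linear scale as deposited. Array medians lay between 118 and 131. B140H array B stood apart, with a median of 131 and a lower quartile of 58.6, where the lower quartiles of the other 11 arrays lay between 50.8 and 53.7. Of the 17 markers listed for myeloid blasts, 16 were measured, and above the median level of all probe sets lay 16 in B117H, 16 in B117P, 12 in B140H and 11 in B140P. Their summed intensity was 71552 to 75684 in B117H, 88233 to 100426 in B117P, 41007 to 42629 in B140H and 41628 to 43756 in B140P. The 9 measured B lymphoid markers summed to between 4615 and 6127 in B117H, 1360 and 1832 in B117P, 6197 and 7216 in B140H, and 5919 and 10294 in B140P. Above the median level lay 5, 4, 7 and 8 of them, in that order of lines. In B117H Vpreb1 stood at a log2 level of 12.08, and Cd79a, Cd79b and Ebf1 at 6.14, 5.99 and 5.44. Cd79a, Cd79b and Ebf1 stood at 9.12, 11.43 and 9.71 in B140H. Of the myeloid list, Kit and Cd34 stood at 5.53 and 5.22 in B140H, against 10.51 and 12.82 in B117H. Flt3 went the other way, at 13.40 in B140H and 11.29 in B117H. The part of these marker shifts in the chaperone values was not tested.

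Few of the chaperone genes were called in either resistant line. In B117H against B117P, 2 of the 36 genes were called (adjusted p under 0.05 in limma), or 5.56%, where 9.41% of all genes were called. Dnajb4, a J-domain partner of Hsp70, was the 1 called higher, and Cct5, a TRiC subunit, the 1 called lower; of all genes 4.73% were called higher and 4.68% lower. In B140H against B140P 1 of 36 was called (2.78%), where 6.56% of all genes were called, 2.81% of them higher and 3.75% lower. That gene was Hspa1b, an inducible Hsp70, and it was higher in B140H. No gene of the set was called in both resistant lines by the probe set read, and 33 were called in neither. The order of the B117H shares depends on the setting: with array weights 19.4% of the chaperone genes and 12.7% of all genes were called, and with an intensity trend and robust priors 16.7% and 10.2%. Under both settings the B140H share stayed below that of all genes.

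The median log2 change of the 36 genes was -0.01 in B117H and 0.00 in B140H, beside medians over all genes of -0.01 and 0.05. At an unadjusted p under 0.05 there were 10 chaperone genes in B117H and 5 in B140H, where the shares of all genes were 20% and 18.6%. The 3 arrays of the resistant line did not overlap those of the parental line for 15 chaperone genes in B117H, 8 higher and 7 lower, where 26.2% of all genes did not overlap. In B140H this held for 9 genes, 5 higher and 4 lower, where 23.7% of all genes did not overlap. For 30 of the 34 genes not called in B117H, and 32 of the 35 not called in B140H, the 95% interval of the change lay within 1.5-fold in either direction. The largest shifts that these intervals allowed were a log2 change of 0.86 in B117H (Hspa1b) and 0.71 in B140H (Hsf2).

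**Figure D1:**
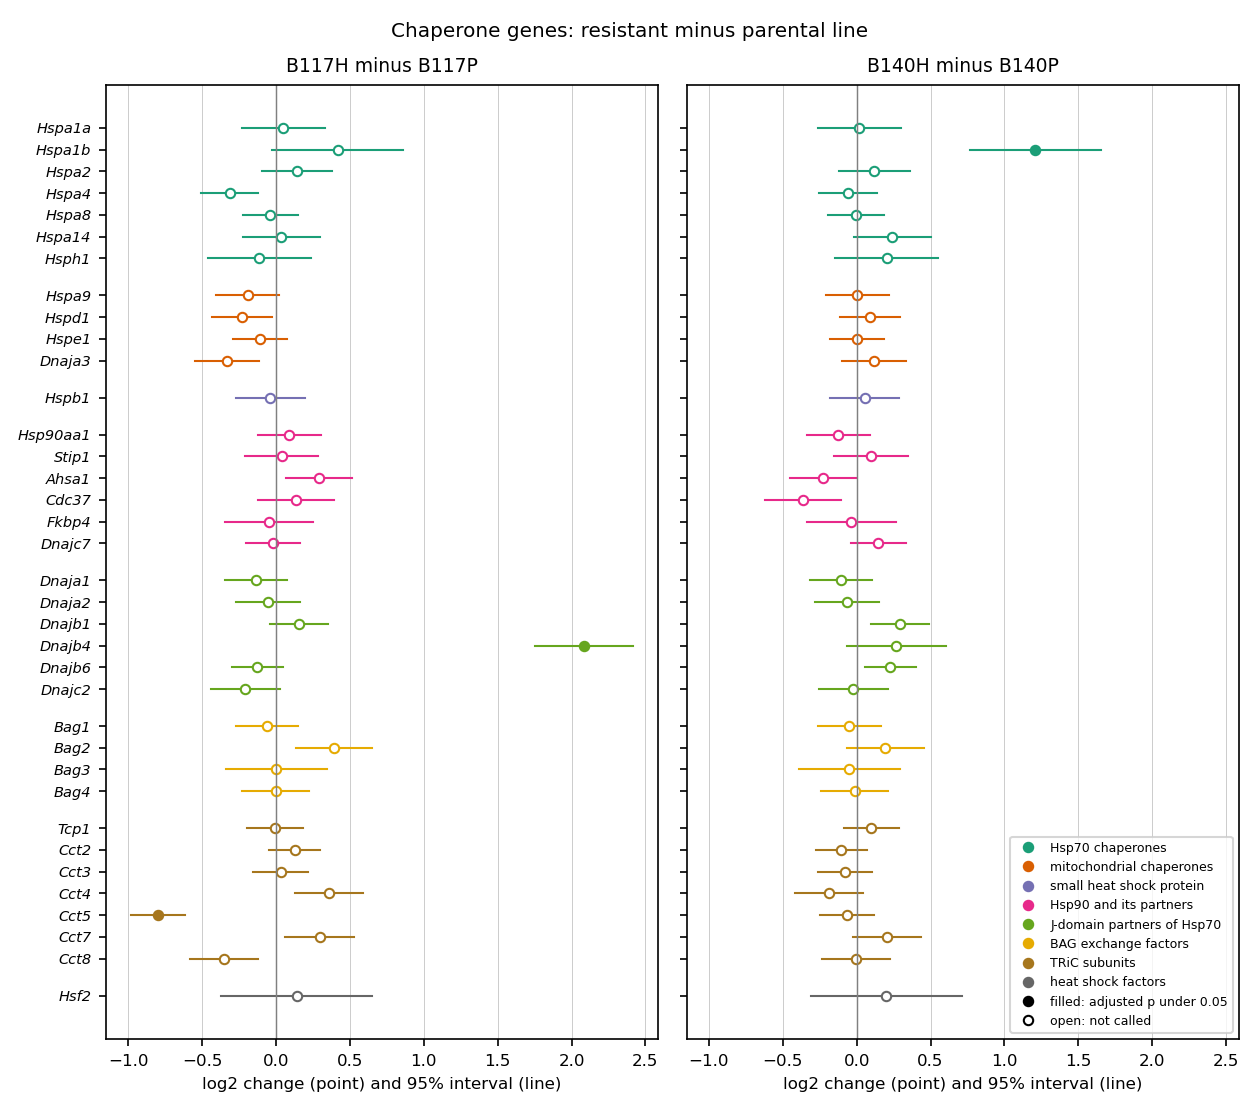
Log2 change of the 36 measured chaperone genes in B117H minus B117P (left) and B140H minus B140P (right), by role; points are limma estimates, lines 95% intervals and filled points adjusted p under 0.05. Dnajb4 at 2.08 and Cct5 at -0.80 stand apart in B117H and Hspa1b at 1.21 in B140H, while most other genes lie near 0.

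Among the 7 Hsp70 chaperones, 1 was called in B140H and none in B117H, where the lowest adjusted p was that of Hspa4 at 0.057. Hspa1b read 957, 863 and 1389 on arrays A, B and C of B140H, against 376, 465 and 529 in B140P. All 3 arrays of B140H lay above all 3 of B140P. The log2 change was 1.21 ± 0.21 (SE), or 2.31-fold, with a limma adjusted p of 0.00378, and without B140H array B it was 1.35 (adjusted p = 0.00561).

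In the B117 pair, Hspa1b read 968, 933 and 1315 in B117H, against 632, 926 and 850 in B117P. B117H lay above B117P on every array, by a narrow margin at the closest pair, and the change of 0.42 ± 0.21 was not called (adjusted p = 0.366). The difference between the 2 changes, 0.79 ± 0.29 on the log2 scale, was not called either (adjusted p = 0.143). It was called with the letter as a replicate block (adjusted p = 0.0171) and with array weights (0.95, adjusted p = 0.032). The arrays of both resistant lines had overlapping ranges, and the lowest Hspa1b values of the series were those of B140P. The other probe sets of Hspa1b gave log2 changes of 1.43 (adjusted p = 0.00181) and 1.34 (adjusted p = 0.00241) in B140H, against 0.40 and 0.69 in B117H, with neither of these called. Hspa1a and Hspa1b encode nearly identical proteins, so signal of the Hspa1b probe sets may come from both genes. The probe set named Hspa1a was dim, at 13.4 to 19.2 units on all 12 arrays, with changes of 0.05 in B117H and 0.02 in B140H.

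**Figure D2:**
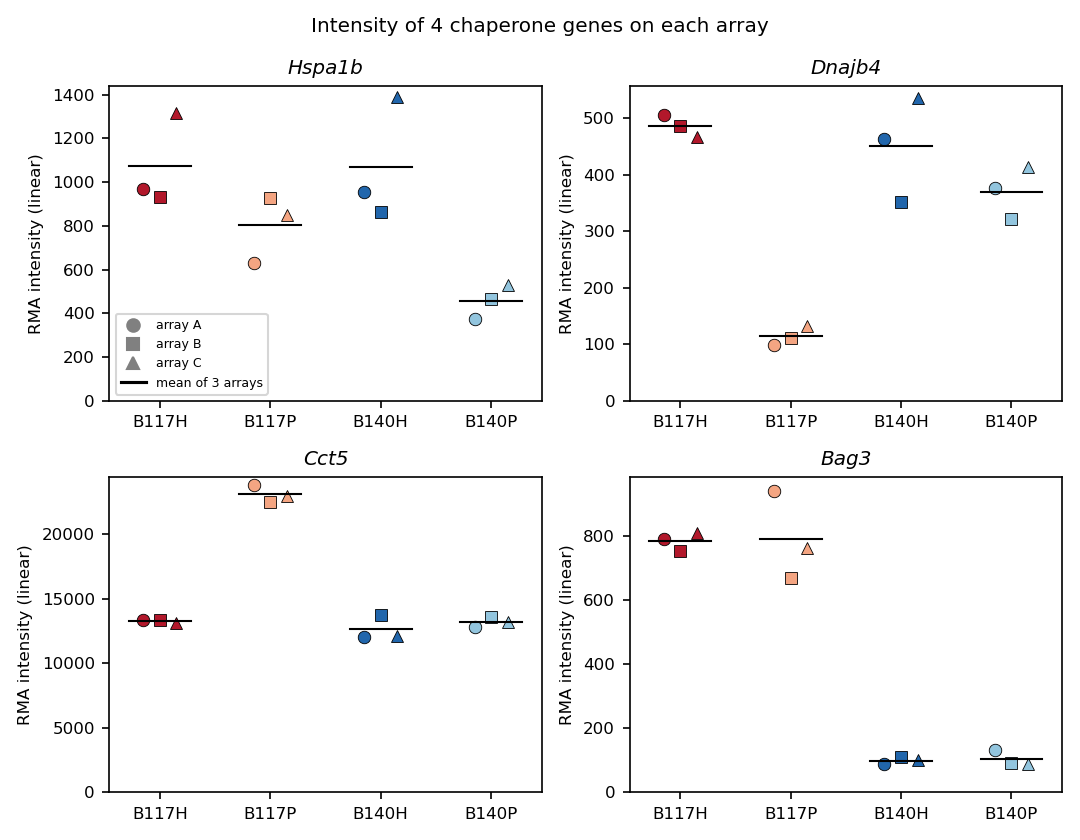
RMA intensity (linear axis from 0) of Hspa1b, Dnajb4, Cct5 and Bag3 on each array of B117H, B117P, B140H and B140P; marker shapes give the array letter and bars the mean of 3 arrays. B117P stands alone at the low end for Dnajb4 and at the high end for Cct5, B140P is lowest for Hspa1b, and Bag3 separates the lineages.

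Hspa8, the constitutive Hsp70 of the cytosol, depended on the probe set read. Its brightest probe set, 1420623_x_at, read 20600, 19785 and 21063 in B117H, against 21654, 19930 and 21573 in B117P. It read 21420, 22624 and 21230 in B140H, against 22913, 22548 and 20063 in B140P. The arrays of each pair overlapped, and the changes were -0.04 in B117H (adjusted p = 0.961) and -0.00 in B140H (adjusted p = 0.993).

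The dimmest of the 4 Hspa8 probe sets, 1431182_at, moved. It read 365, 287 and 332 in B117H, against 630, 689 and 710 in B117P, and 808, 528 and 892 in B140H, against 1139, 1233 and 1321 in B140P. Both resistant lines lay wholly below their parental line. The log2 changes were -1.05 (adjusted p = 0.00156) in B117H and -0.76 (adjusted p = 0.0188) in B140H. The other probe sets, 1455789_x_at and 1420622_a_at, gave -0.10 and 0.13 in B117H and -0.07 and -0.53 in B140H, none of them called. Which transcript 1431182_at reads is not given in the files, and the probe set was singled out after its values were seen.

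**Figure D3:**
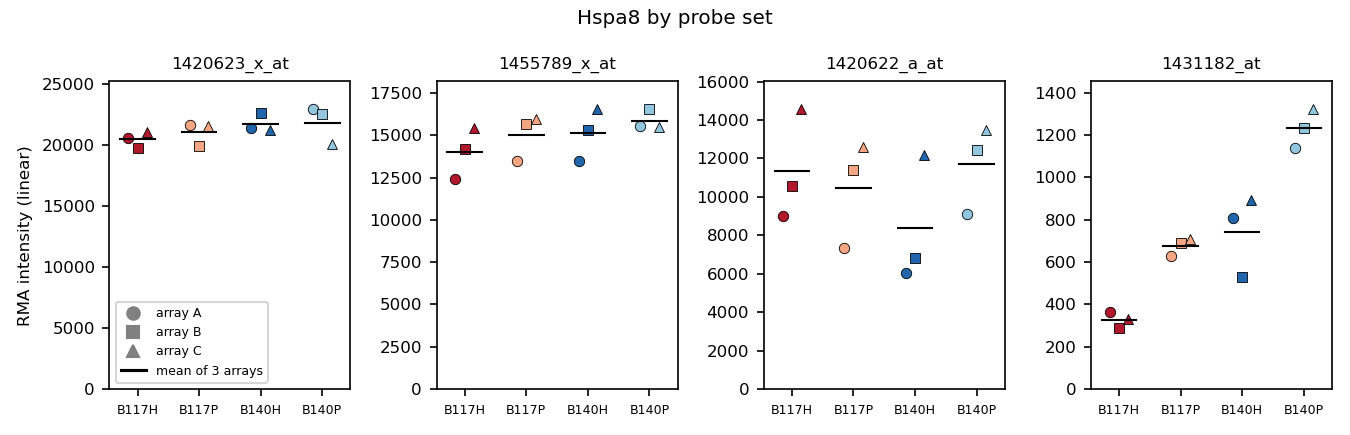
RMA intensity of the 4 Hspa8 probe sets, each on its own linear axis from 0, for arrays A, B and C of B117H, B117P, B140H and B140P, with bars at the mean of 3 arrays. In the panel of 1431182_at both resistant lines lie wholly below their parental lines; levels of different panels are not comparable.

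Hspa4, an Hsp110-type exchange factor, read 5654, 5710 and 5057 in B117H, against 7113, 6829 and 6461 in B117P. These ranges did not overlap, and the change of -0.31 ± 0.09 missed the threshold (adjusted p = 0.057). Its other probe sets had changes of 0.33, 0.25 and 0.00 in B117H, none of them called, and averaged over its probe sets Hspa4 had a change of 0.07. In B140H its probe set 1416147_at read 2126, 1775 and 1526, against 1224, 1275 and 1090 in B140P (0.59, adjusted p = 0.0455), where the probe set of highest mean had -0.06. Hspa2, Hspa14 and Hsph1 had changes between -0.11 and 0.14 in B117H and between 0.12 and 0.24 in B140H, with no call. A dim probe set of Hspa14, 1439826_at, read 261, 256 and 225 in B140H, against 175, 183 and 184 in B140P (0.45, adjusted p = 0.0231), and its difference between pairs was 0.73 (adjusted p = 0.00696). Hspa2 is known for its role in male germ cells, Hspa14 works at the ribosome and Hsph1 is the stress-inducible Hsp110.

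The 4 mitochondrial chaperones, which fold proteins in the organelle's matrix, had no call in either pair. In B117H their changes ran from -0.33 to -0.11, with a median of -0.21, and in B140H from 0.00 to 0.11. Dnaja3, the J-domain partner of the mitochondrial Hsp70, read 1041, 1162 and 1160 in B117H, against 1338, 1571 and 1336 in B117P (change -0.33, adjusted p = 0.0703). Hspd1, the Hsp60 chamber, read 14180, 12845 and 12150 in B117H, against 16375, 14316 and 15308 in B117P (change -0.23, adjusted p = 0.218). Neither gene's ranges overlapped in that pair, and neither was called. Hspe1, the lid of the Hsp60 chamber, and Hspa9, the mitochondrial Hsp70, overlapped between lines of both pairs. Hspb1, a small heat shock protein that holds unfolded proteins, read between 346 and 481 on all 12 arrays and had changes of -0.04 in B117H and 0.06 in B140H, neither of them called.

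None of the 6 measured genes of the Hsp90 group was called in a resistant line. Hsp90aa1, the inducible Hsp90, had changes of 0.09 in B117H and -0.13 in B140H. Ahsa1, which stimulates the ATPase of Hsp90, read 4924, 5088 and 4711 in B117H, against 4326, 3746 and 3959 in B117P. In the other pair it read 4855, 5529 and 4401 in B140H, against 6162, 5637 and 5470 in B140P. The changes were 0.29 ± 0.10 (adjusted p = 0.136) and -0.23 ± 0.10 (adjusted p = 0.325).

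Cdc37, which brings kinases to Hsp90, read 5953, 6678 and 5530 in B140H, against 7585, 8188 and 7569 in B140P. The ranges did not overlap, and the change of -0.37 ± 0.12 was not called (adjusted p = 0.125). In B117H its change was 0.14. Stip1, which joins Hsp70 to Hsp90, Fkbp4, an immunophilin partner of Hsp90, and Dnajc7, which binds both chaperones, had changes between -0.05 and 0.04 in B117H and between -0.04 and 0.15 in B140H.

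Dnajb4 was the J-domain gene with a call. It read 505, 486 and 468 in B117H, against 99.3, 112 and 133 in B117P, and 463, 352 and 536 in B140H, against 376, 322 and 413 in B140P. B117P stood alone at the low end, and the arrays of B140H and B140P overlapped. The log2 change was 2.08 ± 0.15 in B117H, or 4.24-fold (adjusted p = 3.74e-06), and 0.27 ± 0.15 in B140H (adjusted p = 0.486). The difference between the 2 changes was -1.82 ± 0.22 (adjusted p = 0.000246).

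A second probe set of Dnajb4, 1431734_a_at, changed in the same direction in B117H (1.12, adjusted p = 9.84e-05). A dim one, 1439524_at, had a change of -0.04 (adjusted p = 0.975). The other 5 J-domain genes, Dnaja1, Dnaja2, Dnajb1, Dnajb6 and Dnajc2, had changes between -0.21 and 0.16 in B117H and between -0.10 and 0.29 in B140H, with no call. Dnajb1, a partner of Hsp70 that is itself heat-inducible, read 2922, 2796 and 2634 in B140H, against 2516, 2180 and 2130 in B140P (change 0.29 ± 0.09, adjusted p = 0.106). These ranges did not overlap. Dnajb6, which holds back aggregates, read 4788, 5042 and 4787 in B140H, against 4262, 4102 and 4113 in B140P (change 0.23 ± 0.08, adjusted p = 0.167).

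No BAG gene was called in a resistant line. Bag2 read 1870, 1804 and 1441 in B117H, against 1335, 1285 and 1251 in B117P. Bag2 also inhibits the ubiquitin ligase CHIP. Its ranges did not overlap in that pair, and the change of 0.39 ± 0.12 was not called (adjusted p = 0.0751). Bag1, Bag3 and Bag4 had changes between -0.06 and 0.00 in B117H and between -0.05 and -0.01 in B140H.

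In the TRiC complex 1 of the 7 measured subunits was called in B117H and none in B140H. Cct5 read 13319, 13337 and 13102 in B117H, against 23798, 22494 and 22971 in B117P. It read 12054, 13726 and 12094 in B140H, against 12833, 13601 and 13190 in B140P. B117P again stood alone, here at the high end, and the other 9 arrays lay between 12054 and 13726. The log2 change was -0.80 ± 0.08 in B117H, or 1.74-fold (adjusted p = 6.25e-05), and -0.07 ± 0.08 in B140H (adjusted p = 0.791). The difference between these changes was 0.73 ± 0.12 (adjusted p = 0.00194). Cct5 has 1 probe set with its symbol alone.

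The other 6 subunits did not follow Cct5 as a group. Cct8 read 6763, 6447 and 6020 in B117H, against 9257, 7148 and 8236 in B117P (change -0.35 ± 0.11, adjusted p = 0.0743). Cct4 read 8070, 7970 and 9531 in B117H, against 5856, 7362 and 6750 in B117P (change 0.36 ± 0.11, adjusted p = 0.0679). Cct7 read 10582, 10632 and 9662 in B117H, against 9334, 8029 and 7847 in B117P (change 0.30 ± 0.11, adjusted p = 0.154). Each of these 3 had ranges that did not overlap, 1 lower and 2 higher in B117H, and none was called by the probe set of highest mean. Other probe sets of Cct7 and Cct4 were called. Cct7 by 1415817_s_at read 6381, 6435 and 5967 in B117H, against 5150, 4064 and 4705 in B117P (0.44, adjusted p = 0.015). The dim Cct4 probe set 1430034_at read 243, 279 and 259 in B117H, against 160, 177 and 139 in B117P (0.72, adjusted p = 0.0062). In the other pair it read 242, 214 and 178 in B140H, against 134, 162 and 122 in B140P (0.60, adjusted p = 0.0263). By this probe set Cct4 was higher in both resistant lines, while the one of highest mean had -0.19 in B140H. Tcp1, Cct2 and Cct3 had changes between -0.01 and 0.13 in B117H and between -0.10 and 0.10 in B140H. The 7 subunits assemble into the same ring, and their median change was 0.03 in B117H and -0.07 in B140H.

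Hsf2, a heat shock factor active in development, was dim, at 52.7 to 102 units, and its changes of 0.14 in B117H and 0.20 in B140H had the widest intervals of the set (adjusted p = 0.938 and 0.777).

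Averaged over both pairs, 3 chaperone genes were called (8.33%), where 7.86% of all genes were called, 3.69% of them higher and 4.17% lower. Hspa1b (0.81 ± 0.15, adjusted p = 0.00464) and Dnajb4 (1.18 ± 0.11, adjusted p = 3.94e-05) were higher and Cct5 (-0.43 ± 0.06, adjusted p = 0.00074) was lower in the resistant lines. For Dnajb4 and Cct5 this average rests on B117. For Hspa1b it joins a called change of 1.21 in B140H and one of 0.42 in B117H that was not called. The difference between pairs was called for 4 chaperone genes (11.1%), where 10.4% of all genes were called, 4.91% of them higher and 5.51% lower. Besides Dnajb4 and Cct5 these were Ahsa1 (-0.52 ± 0.15, adjusted p = 0.0472) and Cct4 (-0.55 ± 0.15, adjusted p = 0.0442), whose change was positive in B117H and negative in B140H by the probe set read. Another Cct4 probe set of like mean, 1415867_at, gave a difference of -0.38 (adjusted p = 0.203), and 1430034_at gave -0.12 (adjusted p = 0.845). The second Ahsa1 probe set gave -0.33 (adjusted p = 0.39). Most repeats with an array left out ended these last calls.

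Both calls of B117H held in each of the 26 alternative settings. Without all B arrays, which leaves 2 arrays per line, Hspa1b in B140H had a log2 change of 1.37 with an adjusted p of 0.0584. Without all A arrays the average of Hspa1b was 0.73 (adjusted p = 0.0562). Without all C arrays the average of Cct5 was -0.42 (adjusted p = 0.0673) and its difference between pairs 0.76 (adjusted p = 0.0749). Leaving out B117P array B raised the count in B117H to 4 (11.1%, beside 7.49% of all genes) by adding Cct4 and Cct8. Leaving out B140H array B raised it to 4 (11.1%, beside 10.5% of all genes) by adding Hspa4 and Dnaja3.

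More chaperone genes were called between the lineages than within either pair, as held for all genes. Between the sensitive lines, B140P against B117P, 12 of the 36 chaperone genes were called (33.3%), where 23.8% of all genes were called. Of the 12, 5 were higher in B140P, where 12% of all genes were, and 7 were lower, where 11.8% of all genes were. The arrays did not overlap for 20 chaperone genes, 9 higher and 11 lower, where 38.6% of all genes did not overlap. The median log2 difference of the chaperone genes was 0.02, beside 0.00 over all genes. This comparison shares the B117P arrays with that of B117H and the B140P arrays with that of B140H.

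**Figure D4:**
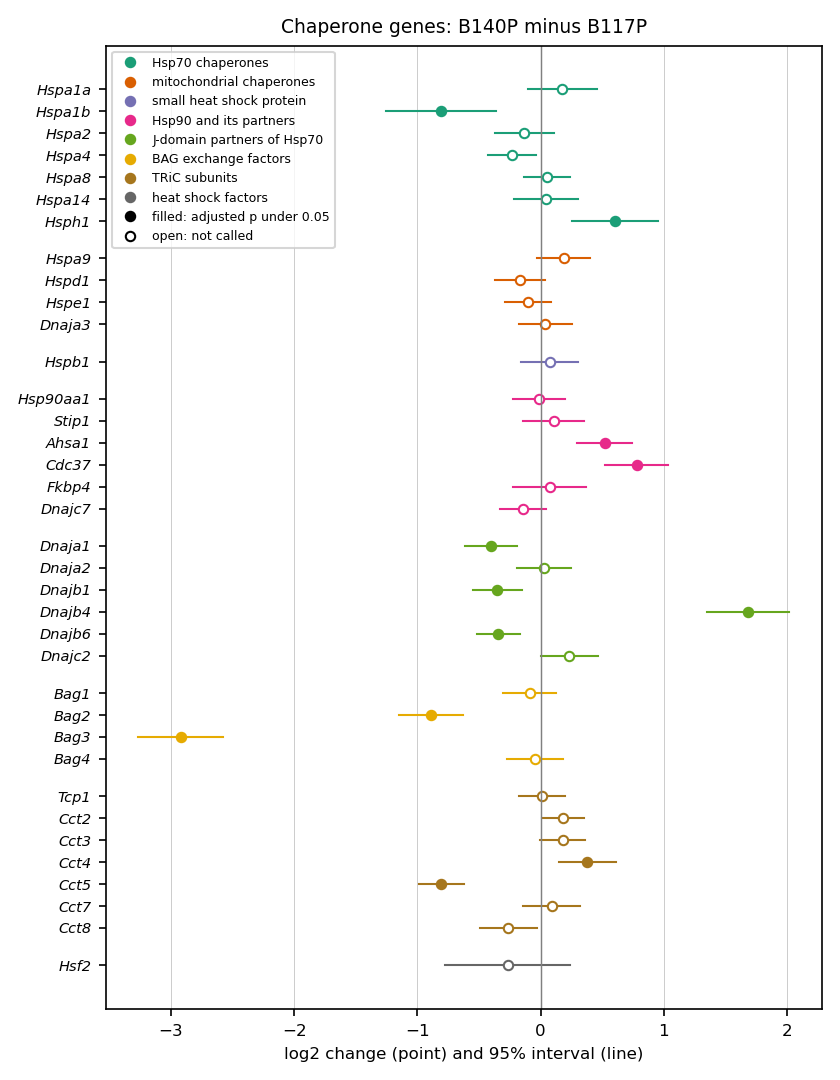
Log2 difference B140P minus B117P of the 36 measured chaperone genes, by role; points are limma estimates, lines 95% intervals and filled points adjusted p under 0.05. Bag3 at -2.92 and Dnajb4 at 1.69 lie at the ends, and 5 filled points lie above 0 and 7 below.

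Bag3 had the widest difference of the set. This exchange factor links Hsp70 to small heat shock proteins and to selective autophagy. It read 131, 92.1 and 88.8 in B140P, against 940, 670 and 763 in B117P, a log2 difference of -2.92 ± 0.16, or 7.58-fold (adjusted p = 2.13e-08). The resistant lines read 88.0, 110 and 100 in B140H and 790, 755 and 811 in B117H. The 6 arrays of the B140 lines lay between 88.0 and 131 and the 6 of the B117 lines between 670 and 940. Bag2 was also lower in B140P, at 707, 761 and 626, against 1335, 1285 and 1251 in B117P (-0.89 ± 0.12, adjusted p = 0.000119). Bag1 and Bag4 differed by -0.09 and -0.05, with no call.

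In the Hsp90 group 2 of 6 genes were higher in B140P. Cdc37 read 7585, 8188 and 7569 in B140P, against 5372, 3867 and 4477 in B117P (0.78 ± 0.12, adjusted p = 0.000342), and its second probe set differed by 0.50 (adjusted p = 0.0131). Ahsa1 read 6162, 5637 and 5470 in B140P, against 4326, 3746 and 3959 in B117P (0.52 ± 0.10, adjusted p = 0.00248). For both genes all B140P arrays lay above all B117P arrays. Hsp90aa1, Stip1, Fkbp4 and Dnajc7 differed by between -0.14 and 0.11, with no call.

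Of the 6 J-domain genes 1 was higher and 3 were lower in B140P. Dnajb4 differed by 1.69 ± 0.15 (adjusted p = 3.68e-06). Dnaja1, a farnesylated partner of Hsp70, read 5503, 5181 and 4772 in B140P, against 7527, 6437 and 6495 in B117P (-0.40 ± 0.10, adjusted p = 0.00952). Dnajb1 differed by -0.35 ± 0.09 (adjusted p = 0.0156) and Dnajb6 by -0.34 ± 0.08 (adjusted p = 0.00777). Further probe sets of Dnaja1 gave -0.27 (adjusted p = 0.695) and -0.37 (adjusted p = 0.00837), and that of Dnajb1 gave -0.43 (adjusted p = 0.031). None of the other 3 of Dnajb6, at -0.23 to -0.14, was called. In none of these genes did the arrays of the sensitive lines overlap.

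In the Hsp70 group 1 gene was lower and 1 higher in B140P. Hspa1b differed by -0.81 ± 0.21 (adjusted p = 0.0132). Hsph1 read 3946, 3509 and 2619 in B140P, against 2505, 2257 and 1830 in B117P (0.60 ± 0.16, adjusted p = 0.0179). Its second probe set differed by 0.81 (adjusted p = 0.00106).

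Hspa4 gave opposite signs by probe set. The one with the highest mean differed by -0.24 (adjusted p = 0.103) between B140P and B117P. Its probe set 1435194_at read 2484, 2400 and 1916 in B140P, against 1303, 1401 and 1306 in B117P (0.75, adjusted p = 0.000303). Another, 1416147_at, read 1224, 1275 and 1090 in B140P, against 848, 567 and 743 in B117P (0.75, adjusted p = 0.00294). No direction is therefore given for Hspa4.

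Of the TRiC subunits, Cct5 was lower in B140P (-0.81 ± 0.08, adjusted p = 1.19e-05) and Cct4 higher, at 8204, 8865 and 8820 in B140P, against 5856, 7362 and 6750 in B117P (0.38 ± 0.11, adjusted p = 0.0236). The other 5 subunits differed by between -0.26 and 0.18, with no call. None of the 4 mitochondrial chaperones, Hspb1 or Hsf2 was called.

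For 6 of the 12 genes, Ahsa1, Bag2, Bag3, Cct5, Cdc37 and Dnajb4, the call between sensitive lines held in every alternative setting run. It was lost in at least 1 for Cct4, Dnaja1, Dnajb1, Dnajb6, Hspa1b and Hsph1. Without all B arrays the count was 6 (16.7%), the same share as that of all genes (16.7%). Of the 12 genes, 9 were called between the sensitive lines and in no resistant line, and 24 of the 36 chaperone genes were called in none of the 5 comparisons by the probe set read. The matching counts over all genes are not given here. Of all genes, 23.8% were called between the sensitive lines, 9.41% in B117H and 6.56% in B140H, so these counts mark no trait of the chaperone genes. Other probe sets called 4 more genes between the sensitive lines: Dnaja2, Hspa14, Hspa4 and Hspa8. Called genes with at least 1 probe set not called were Ahsa1, Cct4, Dnaja1, Dnajb4, Dnajb6 and Hspa1b.

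Array letter moved with many chaperone values. In all 4 lines array C lay below array A for 18 of the 36 genes, where 15.3% of all genes did so, and above it for 2, Hspa1b and Cct4, where 19.6% of all genes did so. Among genes with a mean log2 level over 10 the counts were 16 lower and 1 higher of 28 chaperone genes, where of 4320 genes 21.4% were lower and 25.3% higher. The log2 difference of C minus A for Hspa1b was 0.44 in B117H, 0.43 in B117P, 0.54 in B140H and 0.49 in B140P. What the letters stand for is not given in the sources used here. The 3′ minus 5′ log2 signal of the Actb control probe sets moved with the letter too, at 0.04 to 0.13 on A arrays, 0.22 to 0.46 on B arrays and 0.27 to 0.50 on C arrays. Its part in the chaperone values was not tested. Each line has 1 array of each letter, so the letters are balanced over the comparisons.

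**Figure D5:**
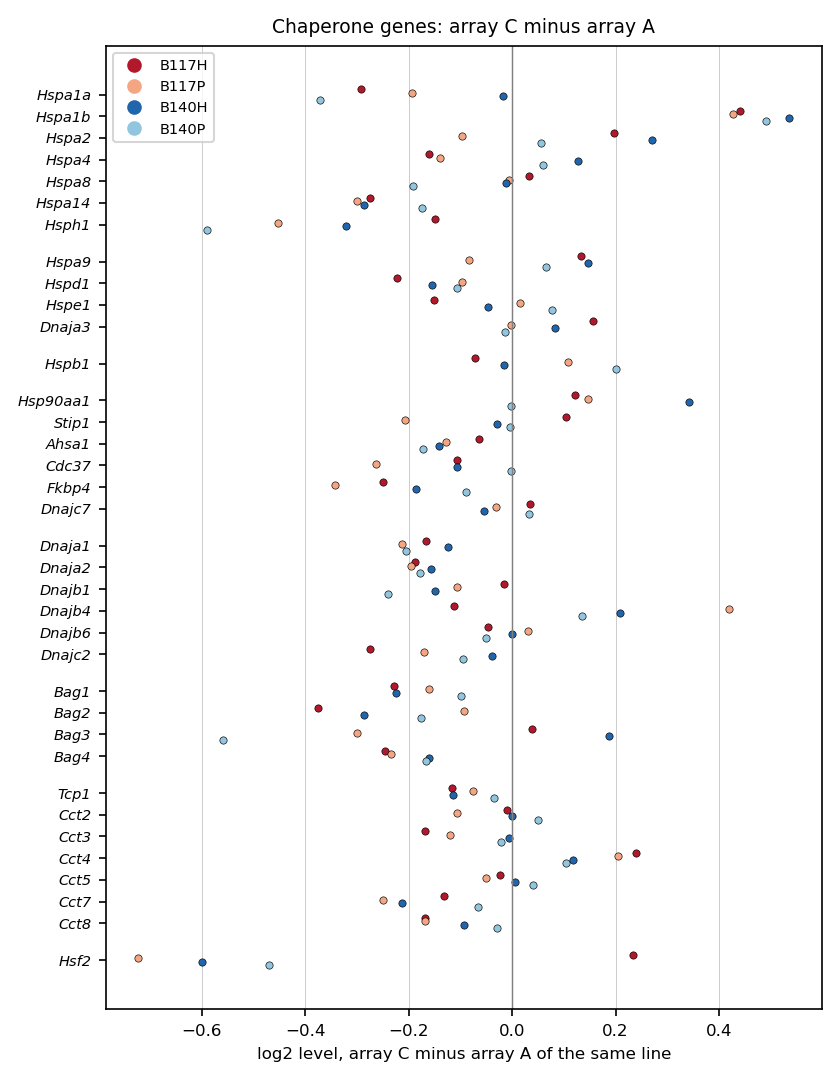
Log2 level of array C minus array A in each of the 4 lines (colours) for the 36 measured chaperone genes, by role. Hspa1b lies at 0.43 to 0.54 in all 4 lines, while the points of 18 genes, such as Hspa14, Dnaja2 and Bag1, all lie below 0.

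The promoter letters were set beside these calls after the calls were known. Of the 14 genes with the 2-unit motif, 2 were called in B117H, 1 in B140H and 8 between the sensitive lines. Of the 16 genes without it, none was called in B117H or B140H and 3 between the sensitive lines. Over all 2171 genes with the motif 9.9% were called in B117H, 6.54% in B140H and 22.8% between the sensitive lines. Over the 12281 genes without it the shares were 9.7%, 6.87% and 24.8%. Nothing is read from these counts about heat shock factor 1. Of the 4 genes with the 3-unit motif, Hsph1, Hspd1, Hspe1 and Dnajb6, none was called in a resistant line. Between the sensitive lines Hsph1 and Dnajb6 were called, Hsph1 higher and Dnajb6 lower in B140P. Of all genes, 9.41% were called in B117H, 6.56% in B140H and 23.8% between the sensitive lines. Nothing is read from these 4 genes either. Hspd1 and Hspe1 are transcribed head to head from a shared promoter.

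A wider list held 97 other chaperone genes, of which 92 were measured. In B117H 3 were called higher and 4 lower (7.61%), beside 9.41% of all genes. Dnajc21, a J-domain protein of ribosome assembly, read 965, 1003 and 946 in B117H, against 3013, 2342 and 2594 in B117P (-1.44 ± 0.12, adjusted p = 7.79e-06). As for Cct5, which lies on chromosome 15 with Dnajc21, B117P stood alone at the high end. Whether the shared chromosome has a part in this was not tested. Tbce, a tubulin-folding cofactor, read 589, 633 and 717 in B117H, against 1100, 1253 and 1203 in B117P (-0.88 ± 0.12, adjusted p = 0.000538). Hspa13, an Hsp70 relative of the endoplasmic reticulum, changed by -0.75 (adjusted p = 0.000616). Dnajc27, Hspb11 and Dnajc9 were the 3 called higher, at 0.70, 0.69 and 0.38.

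Grpel1, the nucleotide exchange factor of the mitochondrial Hsp70, was called in both pairs with opposite signs. It read 1085, 1043 and 944 in B117H, against 2032, 1887 and 1730 in B117P (-0.88 ± 0.10, adjusted p = 9.71e-05). It read 2615, 2545 and 2302 in B140H, against 1935, 1974 and 1807 in B140P (0.38 ± 0.10, adjusted p = 0.0412). The arrays overlapped in neither pair. Its partner Hspa9 was called in neither.

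In B140H 6 of the 92 were called higher and 4 lower (10.9%), beside 6.56% of all genes. Dnajb14, a J-domain protein of the endoplasmic reticulum membrane, read 95.6, 76.1 and 112 in B140H, against 43.2, 46.4 and 41.6 in B140P (1.08 ± 0.13, adjusted p = 0.00043). Chordc1, an Hsp90 partner, read 4423, 3747 and 4090 in B140H, against 6944, 6106 and 5538 in B140P (-0.60 ± 0.10, adjusted p = 0.00332). Sugt1, another Hsp90 partner, changed by -0.61 (adjusted p = 0.00259). Hspa4l, of the Hsp110 family, changed by 0.48 (adjusted p = 0.0074). Between the sensitive lines 8 were higher and 18 lower in B140P (28.3%), beside 23.8% of all genes. On the TRiC and prefoldin list 5 of the 19 measured genes were called (26.3%), near the 23.8% of all genes. All 5 were lower, where 11.8% of all genes were called lower. Hsbp1, which binds and restrains heat shock factor 1, was higher at 5226, 5568 and 5550 in B140P, against 3248, 3320 and 3366 in B117P (0.72 ± 0.08, adjusted p = 3.55e-05).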

How the data were processed

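Total RNA of 4 lines was measured on 12 one-colour arrays. The deposited values are probe-set intensity values that the authors made with RMA, per the submitters' processing notes; its version, its settings and any genome build were not given in the sources used here. The scale was taken as linear because the deposited intensities ran from 7.65 to 36675. They were analysed as log2(value + 1), so folds of dim probe sets are understated, and no detection calls were used. The number of arrays limits the precision, and the median residual SD was 0.154 log2 units.

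After removal of 64 array controls from 45101 probe sets, 45037 entered the test. By the platform annotation 34945 of them have 1 gene symbol, 932 several and 9160 none, and those with several or none named no gene. Where several probe sets carried a gene's symbol alone, the one of highest mean over the 12 arrays was used. Of the 36 genes 26 have further probe sets, 60 in all, and the text names those whose call differed within a resistant pair. Fits were made with limma 3.58.1 under R 4.3.3 (lmFit, contrasts.fit and eBayes, 1 coefficient per line, all 12 arrays, two-sided), with Benjamini-Hochberg adjustment over the 45037 probe sets and a call at an adjusted p under 0.05. Each test rested on 8 residual degrees of freedom and a prior worth 4.65. Contrasts were B117H minus B117P, B140H minus B140P, the average and the difference of these changes, and B140P minus B117P. The code was tested on simulated data. Tables were made with Python 3.11.15 and pandas 2.3.3.

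The gene list, the list of 97 other chaperone genes and the marker lists were chosen with earlier results of these data known. All listed genes may be named, and of the other chaperone genes the 4 called genes with the largest absolute change per comparison and system. The promoter search was added after values were seen. The array letters were checked by the correlation of arrays' deviations from their line's mean: it was 0.587, 0.360 and 0.560 for A, B and C between B140H and B140P, 0.499, 0.131 and 0.413 between B140P and B117P, and 0.555, 0.028 and 0.392 between B117H and B117P. By the rule that every correlation exceed 0.1, the letters pair the first 2 comparisons and not the third. The fits reported above carried no term for the letter. Their SEs, intervals and calls therefore ignore the pairing, also in those 2 comparisons. Counts with the letter as a block are given in the last section. Alternatives were the letter as a block, other normalizations, filters, priors, weights, probe-set rules and thresholds, and leaving out arrays.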

Additional observations from a re-analysis of the deposited data

Results flagged for a closer look

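By the limma test of the difference (B140 change minus B117 change, adjusted p under 0.05), the change in resistance differed between the lineages for some genes. These were 4 of the 36 chaperone genes (11.1%) and 11 of the 92 measured genes of the wider list (12%). Both shares lay near the 10.4% of all genes. Of the 11 genes of the wider list, 9 are named here. On the log2 scale the difference was -1.82 for Dnajb4 (change of 0.27 in B140H and 2.08 in B117H), 0.73 for Cct5 (-0.07 in B140H and -0.80 in B117H), -0.52 for Ahsa1 (-0.23 in B140H and 0.29 in B117H) and -0.55 for Cct4 (-0.19 in B140H and 0.36 in B117H). Other probe sets of Ahsa1 and Cct4 did not give a call. For Dnajb4 and Cct5 the B117P arrays lie outside the range of the other 9. In the wider list it was 1.40 for Dnajc21, 1.26 for Grpel1, 1.02 for Tbce, 0.93 for Dnajc30, 0.83 for Dnajb14 and 0.74 for Hspa13. It was -1.05 for Dnajc27, -0.66 for Sugt1 and -0.63 for Chordc1. No outlier test was run on the groups of 3 arrays, but the fits were repeated with each array left out. In these repeats the differences of Dnajb4 and Cct5 stayed called, while most of them ended those of Ahsa1 and Cct4.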

How the results depend on the processing

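Counts of called chaperone genes moved with several settings. In B117H, where 2 were called, the count was 7 with brighter probe sets only, 7 with the replicate block on the letter, 6 with an intensity trend and robust priors, 7 with array weights and 6 with probe sets averaged per gene. The share of chaperone genes in these 5 settings was 20.6%, 19.4%, 16.7%, 19.4% and 16.7%, beside 17%, 13.1%, 10.2%, 12.7% and 10.9% of all genes, so each put it above that of all genes, where the model reported above put it below. The count was 2 to 4 with arrays left out. Among these repeats the share also lay above that of all genes without B117P array B or B140H array B. The same held without B117H array C (8.33% beside 6.45%), without all B arrays (5.56% beside 4.45%) and without all C arrays (5.56% beside 3.23%). In the other repeats with arrays left out it lay below. In B140H, where 1 was called, the count was 2 with brighter probe sets only, with array weights or without shared probe sets (those ending in _s_at, _x_at or _a_at), beside 12.4%, 6.66% and 6.09% of all genes, and 0 to 1 with arrays left out. The average of both pairs, with 3 called, gave 6 with brighter probe sets only, the replicate block, the intensity trend or array weights, 7 with probe sets averaged per gene (beside 15.1%, 11.6%, 8.79%, 10.1% and 9.66% of all genes), and 2 to 4 with arrays left out. The difference between pairs, with 4 called, gave 2 without shared probe sets, 2 at an adjusted p under 0.01, 6 with the replicate block (beside 9.75%, 5.53% and 15.1% of all genes), and 1 to 4 with arrays left out. It also gave 6 with brighter probe sets only (17.6% beside 19.4% of all genes) and 6 with array weights (16.7% beside 12%). With the intensity trend it gave 5 (13.9% beside 11.5%). Between B140P and B117P, with 12 called, arrays left out gave 6 to 12. At an adjusted p under 0.01 the count was 8 (22.2% beside 17.5% of all genes). With brighter probe sets only it was 13, a share of 38.2% and no longer above that of all genes, 38.7%. It was 14 with the intensity trend or array weights (38.9% beside 24.7% and 29.4%). Probe sets averaged per gene gave 13 (36.1% beside 25.9%), and the setting without shared probe sets gave 11 (33.3% beside 22.5%). The replicate block left the counts of B140H (1) and of the sensitive lines (12) as they were, while the shares of all genes rose. In B140H it gave 2.78% beside 10% of all genes, where the main fit had 6.56% of all genes. Between the sensitive lines it gave 33.3% beside 28.2%, where the main fit had 23.8% of all genes. In the B117 pair 5 of 6 arrays correlated best with their own letter. Hspa4 reversed between B140P and B117P with the mean of its probe sets (0.35, adjusted p = 0.0197). The cause of these shifts was not tested. A fit on the arrays of the lines compared could not differ for the average and the difference, which use all 12 arrays. With 3 arrays per line, changes well above the spread of the arrays could go without a call. In B117H these included Hspa4 (-0.31 ± 0.09) and Bag2 (0.39 ± 0.12). The smallest detectable change was not computed. The widest interval of the set was that of the dim gene Hsf2.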
